A study of Homo sapiens with 4 samples.

Results

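Expression of 54 genes of the WNT pathway was examined in LNCaP cells, a human prostate cancer line that responds to androgen. The genes were taken by name out of 60675 annotated genes, and comprise 7 WNT ligands, 2 genes of ligand secretion, 8 Frizzled receptors, 5 co-receptors, 3 Dishevelled genes, 8 genes of the destruction complex, 9 genes for beta-catenin and its nuclear partners, 4 nuclear repressors, 6 feedback genes and 2 secreted antagonists. RNA was sequenced after 72 h from cells given 1 nM R1881, a synthetic androgen, with either vehicle (DMSO) or 50 µM CPI-455, an inhibitor of the KDM5 family of enzymes that remove methyl groups from histone H3 lysine 4. Both groups carried the androgen and were grown in phenol red-free medium with hormone-depleted serum, so the comparison is of androgen with and without the inhibitor in 1 cell line. Each group had 2 libraries, described by the study as biological replicates.

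WNT proteins are lipid-modified ligands that are carried out of the cell and bind a Frizzled receptor. With the co-receptors LRP5 and LRP6, this halts a cytoplasmic destruction complex that otherwise marks beta-catenin for degradation, and beta-catenin then enters the nucleus and acts with TCF and LEF factors. Other WNT ligands signal through ROR and RYK receptors without beta-catenin. In the prostate the pathway is known for its part in gland development and in tumor growth.

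Of the 54 genes, 52 passed the filter on low counts and were tested. A gene was called when it changed at least 2-fold and its false discovery rate (FDR), taken over all genes tested with edgeR's quasi-likelihood test, was below 0.05. Expression of 25 WNT pathway genes was called lower with CPI-455, or 48.1% of those tested, where 21.3% of all 17600 genes tested and 24.4% of the 13813 protein-coding genes were called lower. Only NKD2 and WNT10B were called higher, or 3.85%, against 21.0% of all genes and 15.6% of the protein-coding genes. When every library needed at least 10 counts, 48 WNT pathway genes were tested and 21 called lower (43.8%), against 21.5% of the protein-coding genes. The genes were chosen with earlier results of these data known, so these shares describe the list and are no independent test. The median log2 fold change, given throughout as CPI-455 over vehicle, was -0.99 over the 52 genes (quartiles -1.69 and -0.27), -0.04 over all genes tested and -0.21 over the protein-coding genes. In 41 of the 52 the log2 fold change was below 0. Of the 25 genes that were not called, 9 were lower and 4 higher with an FDR below 0.05 but by less than 2-fold, and 12 had an FDR at or above 0.05. The normalized levels of the 2 groups did not overlap for 48 of the 52 genes, which was also so for 81.9% of all genes tested.

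Counted fragments numbered 19623553 and 20690819 in the vehicle group, against 9522920 and 5401588 in the CPI-455 group, so low genes were measured less surely with CPI-455. MALAT1, a nuclear long non-coding RNA, took 0.114% and 0.0884% of all counts in the vehicle libraries, against 4.95% and 6.49% in those with CPI-455, and the mitochondrially encoded genes took 2.43% and 1.91% against 1.24% and 0.967%. The part of these shifts in the WNT results was not tested beyond 1 setting: with those genes left out of the normalization, 25 WNT genes were again called lower and 2 higher. All 9 luminal prostate markers examined had counts in the 4 libraries, 6 of them called lower (among them KRT8, log2 fold change -1.07). Of all protein-coding genes tested 24.4% were called lower. The summed counts of 3 basal markers were 4 and 6 in the vehicle libraries, against 11 and 6 with CPI-455, and of 3 leukocyte markers 7 and 3 against 11 and 12, with KRT5 at 0 in every library. These are raw counts, and the CPI-455 libraries were smaller, so both lists took a larger share of the CPI-455 libraries. Of the stromal markers only COL1A1 and ACTA2 were high enough to test. COL1A1 was called higher (mean 4.49 CPM with vehicle, against 8.91 with CPI-455, log2 fold change 1.00), while ACTA2 was not called (-0.87), and the part of these genes in the WNT results was not tested. Values are shares of each library, so fewer cells expressing a gene and less of its RNA per cell cannot be told apart.

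**Figure D1:**
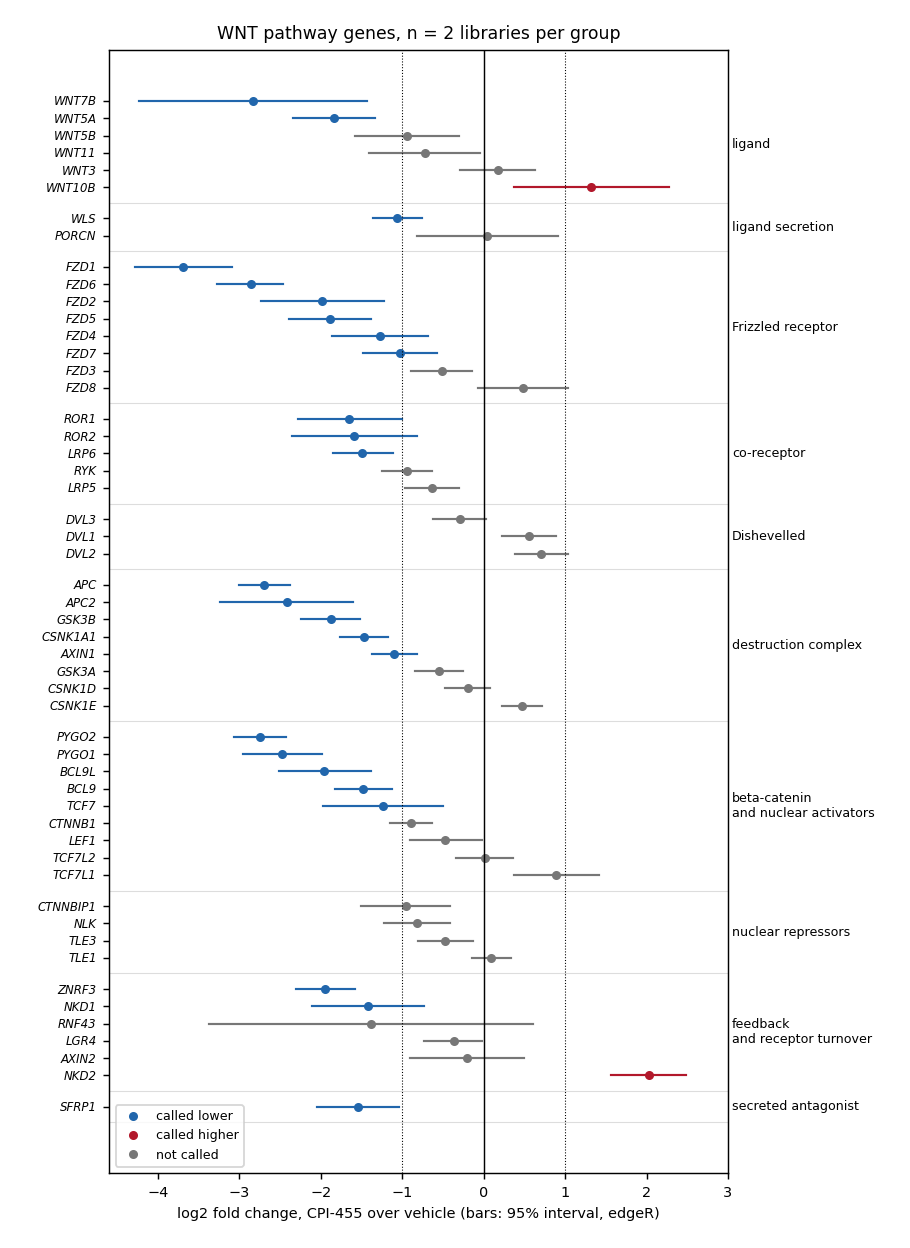
Log2 fold change of CPI-455 over vehicle (horizontal axis) for the 52 WNT pathway genes tested, grouped by role, with 95% intervals computed from the edgeR fit (n = 2 libraries per group) and dotted lines at a 2-fold change. The 25 genes called lower lie in every group but Dishevelled and the nuclear repressors, and only WNT10B and NKD2 are called higher.

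Promoter sequence is shown for 5 genes, chosen to set the Frizzled gene that fell most beside the one that did not fall, a nuclear gene that fell beside the feedback gene that rose, and the only member promoter with a TCF/LEF match. RefSeq promoter windows of GRCh38.p14, from 250 bases before to 50 bases after a transcription start, were at hand for 39 of the 54 genes. Each line gives the 250 bases before the start, 5′ to 3′ on the gene's strand. Capitals mark the letters CTTTGAT or CTTTGAA, the core bound by TCF and LEF factors, and GGGCGG, the GC box bound by SP family factors, or their reverse complements. The FZD1 bases are chr7:91264183-91264432 on the forward strand, FZD8 chr10:35642297-35642546 on the reverse, PYGO2 chr1:154961783-154962032 on the reverse, NKD2 chr5:1008552-1008801 on the forward and DKK1 chr10:52314031-52314280 on the forward strand.
FZD1: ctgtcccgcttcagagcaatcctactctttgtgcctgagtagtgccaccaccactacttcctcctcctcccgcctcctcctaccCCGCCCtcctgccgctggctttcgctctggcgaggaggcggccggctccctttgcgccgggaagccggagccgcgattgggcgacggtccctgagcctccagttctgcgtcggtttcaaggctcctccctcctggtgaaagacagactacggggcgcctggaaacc
FZD8: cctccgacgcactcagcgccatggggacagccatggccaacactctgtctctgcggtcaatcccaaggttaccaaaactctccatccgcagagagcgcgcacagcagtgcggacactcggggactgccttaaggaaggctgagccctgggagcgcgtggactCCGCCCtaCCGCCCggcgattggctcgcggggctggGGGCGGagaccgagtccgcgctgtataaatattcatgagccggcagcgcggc
PYGO2: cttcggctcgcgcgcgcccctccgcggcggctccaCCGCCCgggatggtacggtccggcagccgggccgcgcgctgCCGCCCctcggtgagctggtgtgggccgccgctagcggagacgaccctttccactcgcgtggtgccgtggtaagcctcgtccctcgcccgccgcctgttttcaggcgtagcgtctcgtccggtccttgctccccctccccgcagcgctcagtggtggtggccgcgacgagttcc
NKD2: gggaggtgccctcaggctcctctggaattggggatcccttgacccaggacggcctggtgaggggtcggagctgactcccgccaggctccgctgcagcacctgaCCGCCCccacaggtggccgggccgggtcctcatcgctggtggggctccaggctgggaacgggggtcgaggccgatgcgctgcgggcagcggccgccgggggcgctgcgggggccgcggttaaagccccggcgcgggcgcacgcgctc
DKK1: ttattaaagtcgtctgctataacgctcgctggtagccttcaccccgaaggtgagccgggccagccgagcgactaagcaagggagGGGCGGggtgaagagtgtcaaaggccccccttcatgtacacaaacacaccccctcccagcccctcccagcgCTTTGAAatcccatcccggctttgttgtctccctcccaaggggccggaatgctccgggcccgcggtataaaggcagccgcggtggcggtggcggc

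The TCF/LEF letters were present in 1 of the 54 windows of WNT pathway genes (1.85%, several genes having more than 1 start), in that of DKK1, where the match begins at position -95 from the start and does not overlap the GC box at -166. Of all 35116 windows 6.86% held a TCF/LEF match, and of the 16521 windows of protein-coding genes tested 4.32% did. A GC box was found in 64.8% of the WNT pathway windows, in 65.0% of those of protein-coding genes tested and in 45.0% of all windows. It was present in 14 of the 23 windows of genes called lower (60.9%) and in 18 of the 28 windows of tested genes that were not called (64.3%). FZD1, which fell, held 1 GC box, while FZD8, which was not called, held 3. The windows of FZD4 and FZD5, which also fell, held 6 each. The windows of WNT pathway genes had a median of 26 CpG dinucleotides, close to the 25 of protein-coding genes tested and above the 14 of all windows. These matches describe letters in the windows and not binding.

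Among the ligands, WNT5A and WNT7B fell, WNT10B rose, and the other tested ligands were not called. WNT5A, the main ligand of the beta-catenin independent branch, stood at 23.5 and 27.0 normalized CPM (counts scaled to library size) with vehicle, against 6.73 and 7.52 CPM with CPI-455. Both CPI-455 libraries were below both vehicle libraries, with a log2 fold change of -1.84 (SE 0.22, FDR = 8.43e-05 by edgeR), or 3.57-fold lower. WNT7B, a ligand that acts through beta-catenin, had 81 and 71 counts with vehicle, against 6 and 1 with CPI-455. It passed the filter on low counts only through the vehicle group, and was not tested when every library needed at least 10 counts. WNT7B had a log2 fold change of -2.84 (SE 0.63, FDR = 0.00334), and without vehicle replicate 1 it was -2.80 but no longer called (FDR = 0.0784, edgeR's quasi-likelihood test). Without CPI-455 replicate 1 it was -4.12 and without CPI-455 replicate 2 it was -2.42. WNT10B, another ligand of that branch, stood at 3.87 and 1.96 CPM with vehicle, against 6.28 and 8.51 CPM with CPI-455. The vehicle libraries of WNT10B lay far apart, and its log2 fold change of 1.32 (SE 0.42, FDR = 0.0218 by edgeR) was 0.90 and not called without vehicle replicate 2 (FDR = 0.268).

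WNT11 and WNT5B, both known for beta-catenin independent signaling, had log2 fold changes of -0.72 (FDR = 0.0635, edgeR) and -0.94 (FDR = 0.0167), and each was called lower when 1 CPI-455 library was left out (-1.37 without replicate 1 for WNT11 and -1.33 without replicate 2 for WNT5B). WNT3 was level at 21.1 and 22.0 CPM against 28.2 and 19.8, with overlapping groups and a log2 fold change of 0.17 that turned to -0.02 with library totals only. WNT4 was not tested, with 13 and 14 counts in the vehicle libraries, against 0 and 2 with CPI-455. Over the groups the WNT4 level was 4.37-fold lower with CPI-455, with a 95% counting interval of 1.1-fold to 37.9-fold that covers counting error only. CPM per kb of exon allows levels of different genes to be compared roughly. It divides by full exon length, while fragments on shared bases were not counted. Genes that share bases with another gene may thus read low. On this scale WNT11 and WNT3 were the highest ligands with vehicle (means 5.68 and 4.97). With CPI-455 the order was WNT3, WNT11 and WNT10B (5.53, 3.31 and 2.81), where the values of WNT11 and WNT10B overlapped and those of WNT3 lay above both. The 7 ligands summed to 19.1 ± 0.0445 CPM per kb (SD, n = 2) with vehicle, and to 14.4 ± 1.66 under the inhibitor.

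The secretion genes went different ways. WLS, the carrier that takes WNT proteins to the cell surface, stood at 148 and 151 CPM with vehicle, and fell to 64.5 and 79.5 CPM with CPI-455. WLS had a log2 fold change of -1.06 (SE 0.13, FDR = 1.06e-04 by edgeR), which is near the 2-fold threshold, and its call was lost in 6 of 17 alternatives, among them without CPI-455 replicate 1 (-0.93). PORCN, the enzyme that adds the lipid to WNT proteins, overlapped between groups at 9.49 and 6.62 CPM against 11.2 and 4.75 CPM. Its log2 fold change of 0.04 had an interval of -0.82 to 0.91 and changed sign with library totals only (-0.15).

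The Frizzled genes, which encode the seven-pass receptors of WNT ligands, were the group with the most calls, since 6 of 8 fell and their median log2 fold change was -1.58. FZD1 (ENSG00000157240, chromosome 7 from 91264364 to 91271326 on GRCh38) changed most of the 52 WNT pathway genes tested. It stood at 30.7 and 29.6 CPM with vehicle, against 2.69 and 1.78 CPM with CPI-455, or 650 and 647 against 24 and 9 counts. This is 12.9-fold lower, with a log2 fold change of -3.69 (SE 0.26, FDR = 4.02e-06 by edgeR) that lay between -4.09 and -3.52 as each library was left out. FZD6 (ENSG00000164930, chromosome 8 from 103298433 to 103332866) is known for planar cell polarity and fell 7.28-fold, from 77.1 and 75.5 CPM to 11.8 and 8.70 CPM (log2 fold change -2.86, SE 0.18, FDR = 2.07e-06). Neither gene's CPI-455 libraries came near its vehicle libraries.

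FZD2, a receptor of WNT5A, stood at 11.5 and 12.2 CPM with vehicle, against 3.70 and 1.98 CPM with CPI-455 (log2 fold change -1.99, SE 0.34, FDR = 7.00e-04, edgeR), and was at -2.60 without CPI-455 replicate 1. FZD5 fell alike, from 45.5 and 45.1 CPM to 14.8 and 8.90 CPM (-1.89, SE 0.22, FDR = 7.16e-05). FZD4, which also serves norrin, a ligand outside the WNT family, fell from 21.6 and 17.3 CPM to 9.31 and 6.33 CPM (-1.28, SE 0.26, FDR = 0.00214), and 18.9% of its exon bases are shared with another gene. Its call was lost in 4 of 17 alternatives, at -0.94 with the length trend removed, -0.88 with length and GC trends removed (-0.93 with the replicate block too), and with glmTreat. FZD7 was at the edge of the threshold, at 34.4 and 31.6 CPM with vehicle, against 13.9 and 19.0 CPM with CPI-455 (-1.03, SE 0.20, FDR = 0.00161). Its call was lost in 9 of 17 alternatives, among them without vehicle replicate 1 (-0.97) and without CPI-455 replicate 1 (-0.81). FZD3 was lower by less than 2-fold, at 32.8 and 31.5 CPM against 23.4 and 21.4 CPM (log2 fold change -0.51, FDR = 0.0216). Over the alternatives the value for FZD3 lay between -0.71 and -0.06. FZD8 was the one Frizzled gene above 0, with 11.4 and 10.6 CPM against 13.0 and 18.0 CPM, and its log2 fold change of 0.48 (interval -0.07 to 1.03, FDR = 0.115) did not pass the test.

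Levels of the Frizzled genes per kb of exon were reordered. FZD6 held the first place with vehicle at a mean of 18.8 CPM per kb, ahead of FZD7 at 8.54, FZD5 at 6.75, FZD2 at 5.62, FZD1 at 4.33, FZD8 at 2.73, FZD4 at 2.63 and FZD3 at 2.33. With CPI-455 the means were 4.26 for FZD7, 3.85 for FZD8, 2.52 for FZD6, 1.77 for FZD5, 1.63 for FZD3, 1.34 for FZD2, 1.06 for FZD4 and 0.321 for FZD1. The values of FZD4 overlapped with those of FZD8 and FZD3 in the vehicle libraries and the other neighbours did not overlap. FZD4 shares 18.9% of its exon bases, where fragments were not counted, so its place may be too low. With CPI-455, FZD7 overlapped with FZD8 and each neighbouring pair from FZD6 down to FZD4 overlapped, while FZD1 was below every other member of the family in both libraries. FZD6 made up 36.1% and 36.6% of the summed Frizzled level with vehicle, against 17.0% and 13.0% with CPI-455, and FZD8 made up 5.39% and 5.16% against 19.0% and 27.2%. With vehicle the sum itself was 51.7 ± 1.37 CPM per kb (SD, n = 2), and the inhibitor left 16.7 ± 0.408, a ratio of 0.324.

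**Figure D2:**
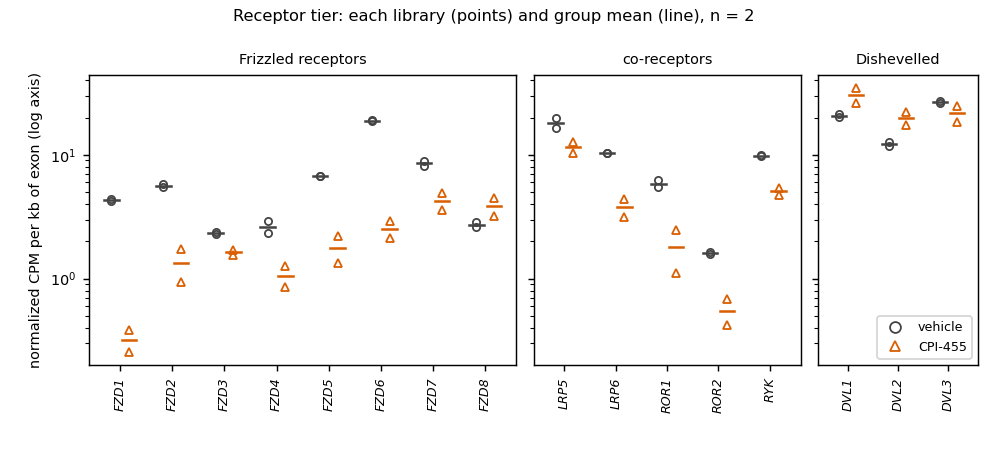
Normalized CPM per kb of exon on a log axis for the Frizzled, co-receptor and Dishevelled genes, with a point for each of the 2 libraries per group and a line at the group mean. FZD1 and FZD6 drop furthest, to means of 0.321 and 2.52 CPM per kb, while FZD8, DVL1 and DVL2 sit higher with CPI-455 than with vehicle.

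Of the 5 co-receptors 3 fell and the other two were lower by less than 2-fold. LRP6, which carries the beta-catenin signal with a Frizzled, stood at 107 and 108 CPM with vehicle, against 32.5 and 45.1 CPM with CPI-455. Its log2 fold change was -1.49 (SE 0.16, FDR = 4.64e-05 by edgeR), and -0.99 once trends on length and GC content of exons were removed, which ended the call. LRP5, its paralog, was lower by less than 2-fold at 101 and 122 CPM against 78.8 and 64.3 CPM (-0.64, FDR = 0.00450). The ratio of LRP6 to LRP5 per kb of exon was 0.630 and 0.523 with vehicle, against 0.246 and 0.419 with CPI-455, and so was lower in both CPI-455 libraries. ROR1 and ROR2, receptors for WNT5A, both fell. ROR1 dropped from 37.0 and 41.7 CPM to 16.5 and 7.52 CPM, with CPI-455 libraries that differed more than 2-fold from each other (log2 fold change -1.65, SE 0.28, FDR = 7.74e-04, edgeR). The value for ROR1 was -2.41 without CPI-455 replicate 1 and -1.30 without CPI-455 replicate 2. ROR2 was low in both groups, at 9.16 and 9.46 CPM against 2.47 and 3.96 CPM (-1.59, SE 0.34, FDR = 0.00286). RYK, a further WNT receptor with an inactive kinase domain, was close to the threshold at 79.9 and 78.0 CPM against 43.5 and 38.2 CPM (-0.94, FDR = 2.66e-04), and was called without CPI-455 replicate 1 (-1.07).

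No Dishevelled gene was called. These adaptors link the receptors to the destruction complex, and their median log2 fold change was 0.56, against -1.58 for the Frizzled genes and -1.49 for the co-receptors. DVL1 was at 77.1 and 80.9 CPM with vehicle, against 132 and 99.9 CPM with CPI-455 (log2 fold change 0.56, FDR = 0.00838 by edgeR), and DVL2 was at 68.0 and 63.4 CPM against 119 and 93.6 CPM (0.70, FDR = 0.00217). Both were above vehicle in each CPI-455 library, by less than 2-fold. DVL3 was at 159 and 165 CPM against 150 and 113 CPM (-0.29, interval -0.62 to 0.03). DVL3 made up 44.2% and 45.0% of the summed Dishevelled level per kb with vehicle, against 30.3% and 29.7% with CPI-455, and DVL1 held the larger share there (42.4% and 42.1%).

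The destruction complex holds beta-catenin on a scaffold while kinases phosphorylate it. Genes of both kinds fell, with 5 of 8 called lower and a median of -1.29. APC (ENSG00000134982, chromosome 5 from 112707498 to 112846239), the tumor suppressor scaffold, stood at 110 and 112 CPM with vehicle, against 17.2 and 17.0 CPM with CPI-455. The replicates of APC nearly coincided in each group, and expression was 6.49-fold lower (log2 fold change -2.70, SE 0.14, FDR = 9.16e-07 by edgeR). Its paralog APC2 was much lower in level but fell 5.35-fold, from 9.26 and 13.5 CPM to 2.36 and 1.78 CPM (-2.42, SE 0.36, FDR = 3.38e-04). AXIN1, the limiting scaffold, fell from 120 and 121 CPM to 58.9 and 53.6 CPM (-1.10, SE 0.12, FDR = 5.24e-05). Its call was lost in 3 of 17 alternatives, at -0.92 with upper-quartile normalization, -0.76 with the length trend removed, and with glmTreat.

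The kinases of the complex differed within families. GSK3B fell from 63.1 and 57.4 CPM to 16.8 and 15.8 CPM, with a log2 fold change of -1.88 (SE 0.16, FDR = 9.97e-06 by edgeR). GSK3A, which phosphorylates beta-catenin as well, was lower by less than 2-fold at 78.4 and 85.5 CPM against 59.0 and 52.6 CPM (-0.55, FDR = 0.00552). The ratio of GSK3B to GSK3A per kb was therefore 0.415 and 0.346 with vehicle, against 0.147 and 0.155 with CPI-455. CSNK1A1, whose kinase primes beta-catenin for GSK3, fell from 151 and 168 CPM to 53.0 and 62.3 CPM (-1.47, SE 0.13, FDR = 1.46e-05), and it shares 37.7% of its exon bases with another gene. With length and GC trends removed it was at -0.95 and was not called. CSNK1E, a kinase of Dishevelled, was the highest of the 54 WNT pathway genes per kb of exon. It was higher with CPI-455 by less than 2-fold, at 591 and 590 CPM against 875 and 755 CPM (0.47, FDR = 0.00502). CSNK1D had a log2 fold change of -0.19 (interval -0.47 to 0.08), which became 0.17 with the length trend removed.

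Beta-catenin itself was lower by less than 2-fold. CTNNB1 (ENSG00000168036, chromosome 3 from 41194837 to 41260096) stood at 233 and 246 CPM with vehicle, against 125 and 133 CPM with CPI-455, with no overlap of the groups. The log2 fold change was -0.89 (SE 0.11, 95% interval -1.15 to -0.64, FDR = 1.03e-04 by edgeR), or 1.86-fold lower, so it passed the FDR but not the 2-fold limit. It was called with library totals only (-1.09) and when no filter was used, and was -0.44 with length and GC trends removed.

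The TCF and LEF factors, which bring beta-catenin to DNA, were changed unevenly. TCF7 fell from 19.3 and 22.6 CPM to 11.9 and 4.95 CPM, with a wide spread between the CPI-455 libraries (log2 fold change -1.24, SE 0.33, FDR = 0.00867, edgeR). Without CPI-455 replicate 2 TCF7 was at -0.86 and was not called, and without CPI-455 replicate 1 it was at -2.10. TCF7L1, mostly known as a repressor, was higher by less than 2-fold at 9.45 and 9.23 CPM against 19.3 and 15.0 CPM (0.89, FDR = 0.00808), and was called higher with upper-quartile normalization (1.07), with the length trend removed (1.07) and without CPI-455 replicate 2 (1.00). TCF7L2 was level at 33.0 and 32.6 CPM against 31.2 and 35.0 CPM, with a log2 fold change of 0.01 (interval -0.34 to 0.36) that was -0.18 with library totals only. LEF1 had 34.7 and 36.1 CPM against 21.2 and 30.9 CPM (-0.47, FDR = 0.0636). The 4 factors summed to 17.4 ± 0.318 CPM per kb (SD, n = 2) with vehicle, against 16.3 ± 0.651 with the inhibitor, and TCF7L1 went from 12.4% and 11.8% of that sum to 27.6% and 20.4%.

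All 4 genes of the BCL9 and Pygopus families fell. BCL9 proteins bind beta-catenin and carry Pygopus, whose PHD finger binds methylated histone H3 lysine 4. PYGO2 (ENSG00000163348, chromosome 1 from 154957026 to 154963853) stood at 119 and 122 CPM with vehicle, against 18.7 and 16.8 CPM with CPI-455, or 2525 and 2666 against 167 and 85 counts. It was 6.73-fold lower (log2 fold change -2.75, SE 0.14, FDR = 8.89e-07 by edgeR), and 13.3% of its exon bases are shared with another gene. PYGO1 was the lesser paralog in both groups and fell from 32.9 and 29.7 CPM to 5.38 and 5.93 CPM (-2.48, SE 0.22, FDR = 1.18e-05). The family sum of the Pygopus genes was 36.8 ± 0.156 CPM per kb with vehicle, against 5.55 ± 0.330 with CPI-455 (SD, n = 2), a ratio of 0.151. BCL9 fell from 61.8 and 63.0 CPM to 20.6 and 24.5 CPM (-1.48, SE 0.16, FDR = 3.63e-05). BCL9L fell from 22.3 and 18.1 CPM to 5.38 and 4.95 CPM (-1.96, SE 0.25, FDR = 1.25e-04), though 38.8% of its exon bases are shared with another gene, and fragments on shared bases were not counted.

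None of the 4 nuclear repressors was called. CTNNBIP1, which keeps beta-catenin from TCF factors, was nearest, at 28.1 and 31.2 CPM against 18.7 and 10.9 CPM (log2 fold change -0.96, FDR = 0.00676 by edgeR). It was called without vehicle replicate 1 (-1.08) and without CPI-455 replicate 1 (-1.46). NLK, a kinase of TCF and LEF factors, was at 28.2 and 28.1 CPM against 16.2 and 15.6 CPM (-0.82, FDR = 0.00295). The Groucho family co-repressors TLE1 and TLE3 had log2 fold changes of 0.09 and -0.47, and that of TLE1 was -0.10 with library totals only. TLE1 was among the highest WNT pathway genes per kb of exon, and stood at 199 and 201 CPM with vehicle, against 216 and 210 CPM with CPI-455.

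**Figure D3:**
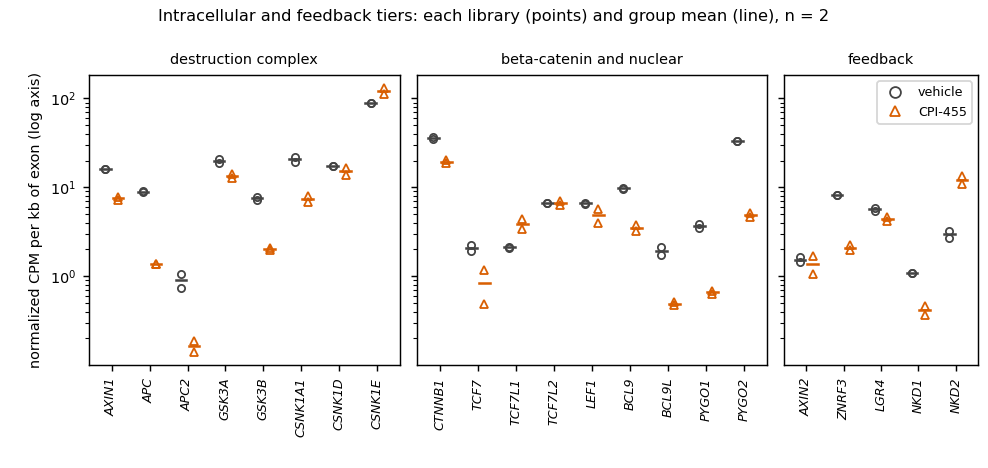
Normalized CPM per kb of exon on a log axis for the destruction complex, beta-catenin with its nuclear partners, and feedback genes other than RNF43, with a point for each of the 2 libraries per group and a line at the group mean. APC, APC2, PYGO1 and PYGO2 show the widest gaps downward, CSNK1E and TCF7L1 lie somewhat higher with CPI-455, and NKD2 rises from a mean of 2.98 to 12.1 CPM per kb.

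The feedback genes, several of which are switched on by the pathway and then restrain it, did not move as one group. AXIN2 (ENSG00000168646, chromosome 17 from 65528563 to 65561647), the widely used readout of beta-catenin activity, had 7.56 and 8.50 CPM with vehicle, against 5.61 and 8.70 CPM with CPI-455. The groups overlapped, and the log2 fold change of AXIN2 was -0.20 (FDR = 0.599 by edgeR). Its interval was -0.90 to 0.50, so a moderate change in either direction is compatible with these libraries. AXIN2 shares 25.2% of its exon bases with another gene, and its value was 0.10 without CPI-455 replicate 1. ZNRF3, a ubiquitin ligase that removes Frizzled from the membrane, fell from 56.8 and 57.4 CPM to 15.7 and 13.6 CPM (log2 fold change -1.95, SE 0.16, FDR = 9.31e-06). Its relative RNF43 was barely detected, with 31 and 37 counts against 9 and 0 with CPI-455 (-1.39, interval -3.38 to 0.60), and the value was -7.67 and called without CPI-455 replicate 1, which leaves the library with 0 counts. LGR4, the R-spondin receptor that restrains these ligases, had 37.2 and 34.5 CPM against 26.5 and 29.1 CPM (-0.37, FDR = 0.0653).

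The Naked genes, whose products bind Dishevelled, moved in opposite directions. NKD2 (ENSG00000145506, chromosome 5 from 1008829 to 1038943) rose 4.07-fold, from 9.35 and 7.86 CPM to 38.5 and 31.3 CPM (log2 fold change 2.03, SE 0.21, FDR = 2.95e-05 by edgeR). It had 343 and 158 counts in the smaller CPI-455 libraries and 198 and 172 in the vehicle libraries, and it was called higher in all 17 alternatives. NKD1 fell from 9.82 and 9.68 CPM to 3.25 and 4.15 CPM (-1.42, SE 0.31, FDR = 0.00293). The ratio of NKD2 to NKD1 per kb of exon was 2.95 and 2.50 with vehicle, against 36.4 and 23.2 with CPI-455. Of the secreted antagonists, SFRP1, which binds WNT ligands, fell from 37.8 and 34.3 CPM to 14.7 and 9.30 CPM (-1.55, SE 0.22, FDR = 2.66e-04). DKK1, which blocks LRP5 and LRP6, was too low to test, with 14 and 12 counts in the vehicle libraries and 0 in both CPI-455 libraries. Set against an assumed floor of 3 counts over the CPI-455 group, DKK1 was 2.81-fold lower. This figure covers neither counting error nor variation between replicates, so it is no firm lower bound.

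**Figure D4:**
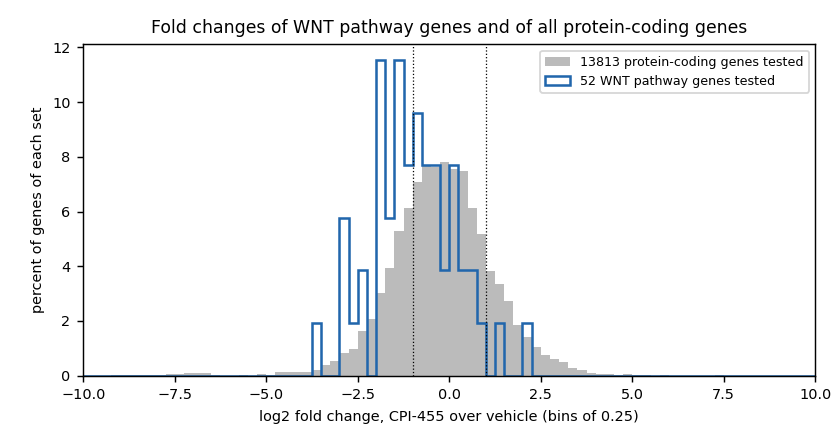
Percent of genes (vertical axis) by log2 fold change of CPI-455 over vehicle in bins of 0.25, for the 52 WNT pathway genes tested (blue line) and the 13813 protein-coding genes tested (grey). The WNT pathway genes have a median of -0.99 and the protein-coding genes one of -0.21, and the 2 distributions overlap over most of their range.

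Exon length moved with the fold changes. In 4 bins of the protein-coding genes by exon length, each of about the same number, the median log2 fold change was 0.13 up to 3271 bases, -0.23 from 3272 to 5068, -0.38 from 5069 to 7481 and -0.36 above that, with 16.7%, 24.7%, 28.6% and 27.6% called lower. The WNT pathway genes were longer, with a median of 6127 bases of exon against 5068. Called lower were 1 of their 5 genes in the shortest bin, 6 of 15 in the second, 7 of 16 in the third and 11 of 16 in the longest, where their median was -1.45. With the length trend removed from each library, 20 WNT pathway genes were called lower and 3 higher, with a median of -0.85, and 19.6% of the protein-coding genes were called lower. Removal of the trend thus lowered both shares, and the source of the trend was not tested.

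**Figure D5:**
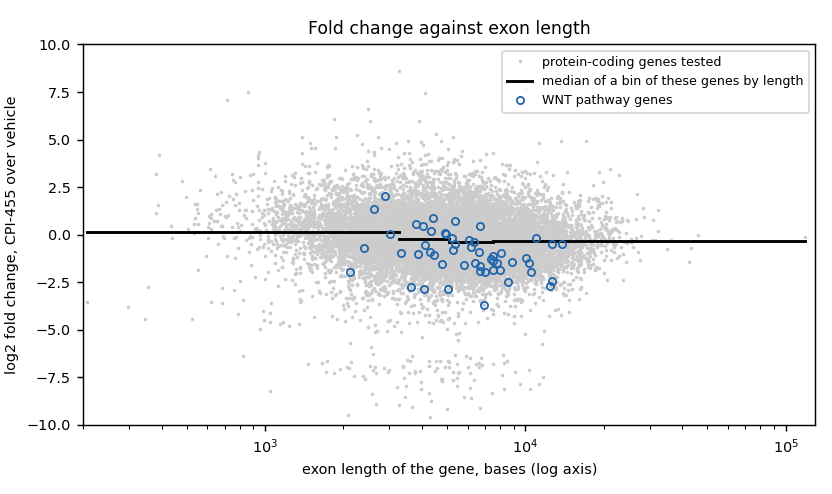
Log2 fold change of CPI-455 over vehicle against exon length in bases (log axis) for protein-coding genes tested (grey), with black lines at the median of each of the 4 bins by length and WNT pathway genes as blue circles. The median falls from 0.13 in the shortest bin to -0.36 in the longest, and most WNT pathway genes lie below these lines.

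A further 149 genes of the pathway were listed by role, of which 121 were tested, 36 called lower (29.8%) and 14 called higher (11.6%), and the median of their log2 fold changes was -0.59. Among all protein-coding genes tested 24.4% were called lower and 15.6% higher, so both shares lay within a few points of that background. Of 26 tested genes of beta-catenin turnover, 10 fell (38.5%) and 2 rose (7.69%), with a median of -0.85, and the largest changes were in BTRC, which recognises phosphorylated beta-catenin for ubiquitination (-2.14), SENP2, a SUMO protease (-1.85), and RNF146, which directs axin to degradation (-1.73). Among 20 nuclear cofactors 6 fell (30.0%) and 1 rose (median -0.56), led by the acetyltransferase genes EP300 (-1.72) and CREBBP (-1.57) and by the chromatin remodeler CHD8 (-1.58). Of 12 other ligands, agonists and receptors 4 fell (33.3%) and 1 rose (median -0.55), including FZD10 (-2.91), the glypican GPC4 (-1.72) and WNT2B (-1.40). Of 9 other antagonists 3 fell (33.3%) and 1 rose (median -0.83), with SHISA2 at -2.03, APCDD1 at -1.87 and KREMEN2 at 1.76. FZD10 had 122 and 127 counts with vehicle, against 10 and 1 with CPI-455. SHISA2 had 99 and 91 against 15 and 1, and APCDD1 80 and 85 against 6 and 8. FZD10, SHISA2 and APCDD1 met the filter on low counts in both libraries of a group with vehicle alone.

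The further genes of the beta-catenin independent branch, for planar cell polarity and calcium, included 37 tested, of which 8 fell (21.6%) and 5 rose (13.5%), with a median of -0.41. This list leaves out genes of the branch treated above, among them WNT5A, ROR1, ROR2 and FZD6, called lower, and WNT5B, WNT11 and RYK, not called. Both shares of the further genes were below those of all protein-coding genes tested. The polarity genes PRICKLE1 (-3.15) and VANGL1 (-3.12) and the calcineurin subunit gene PPP3CA (-2.43) changed most there. VANGL1 had 1854 and 2020 counts with vehicle, against 89 and 55 with CPI-455, while PRICKLE1 was low throughout, with 140 and 150 against 11 and 0. Among 19 tested genes known as WNT targets, 5 fell and 4 rose, with a median of -0.30. EPHB3 fell (log2 fold change -3.23, FDR = 1.11e-04 by edgeR), whereas ID2 (3.03, FDR = 5.83e-07) and PLAUR (2.41, FDR = 8.42e-06) rose. EPHB3 had 310 and 311 counts with vehicle, against 19 and 3 with CPI-455. Like PRICKLE1, it met the filter on low counts in both libraries of a group with vehicle alone. The share of these target genes called lower was 26.3% and the share called higher 21.1%, beside 24.4% and 15.6% of all protein-coding genes tested.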

How the data were processed

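RNA-seq was analysed from 4 LNCaP libraries, 2 labelled with R1881 alone (vehicle) and 2 with R1881 and CPI-455. The authors used TrimGalore for trimming, STAR for alignment (GRCh38) and featureCounts v1.5.0-p1 for counting fragments on exons of each Ensembl gene, and deposited raw counts per gene without normalization. Per the file headers counting ignored strand and skipped fragments on several genes or places, so overlapping genes are measured less surely. The vehicle's DMSO content differs between the study's methods and the labels.

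Symbols and gene types came from GENCODE, matched by gene identifier for 56558 of 60675 genes. Counts were fitted in edgeR 4.0.16 (R 4.3.3) with TMM normalization, filterByExpr at a minimum of 10 counts, and glmQLFit and glmQLFTest without covariates on all 4 libraries. FDR is the Benjamini-Hochberg adjusted p over all 17600 genes tested. Genes were called at FDR below 0.05 and at least a 2-fold change. CPM are TMM-normalized, with errors as SD of 2 libraries. The p-values measure the spread between 2 labelled replicates per group. A single count equalled 0.0483 to 0.185 CPM, and 3 counts, the floor used, 0.145 to 0.555 CPM. Counting intervals are exact at 95%. The SE of a log2 fold change was its absolute value divided by the square root of edgeR's quasi-likelihood F statistic. The 95% intervals of fold changes were built from that SE with a t distribution.

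On simulated counts of 17600 genes for this comparison, with 200 changed by a log2 fold change of 1.5 at a dispersion of 0.02, the fit called 180 of the 200 (90%) and 1 other gene. In the real libraries 3756 genes were called lower and 3698 higher. The simulation therefore does not show how the fit and its normalization perform when so many genes change. The common biological coefficient of variation of the real libraries was 0.126.

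Every called WNT pathway gene is named, with values per library, as are CTNNB1 and AXIN2, and the others are named with a value. Of each further list, the 3 called genes with the largest change and a mean log2 CPM of at least 1 are named. The genes and lists were chosen with earlier results of these data known. Alternatives used RLE, upper-quartile and total scaling, other filters, DESeq2 1.42.0, a likelihood-ratio test, glmTreat, a replicate block, removal of length and GC trends (mgcv 1.9.3), and leaving out each library. Splicing was not analysed here, and some marker genes are not reported here.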

Additional observations from a re-analysis of the deposited data

How the results depend on the processing

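Across the alternatives the WNT pathway genes called lower numbered 18 to 34 and their median log2 fold change stayed below 0. The median was -0.82 with upper-quartile normalization, -1.18 with library totals only, -1.20 without a filter, -0.90 with at least 10 counts in every library and -0.85 with the length trend removed, and -1.13 to -1.03 as each library was left out. Upper-quartile and total scaling moved the median of all genes by 0.18 and -0.19, and relative to it the WNT median was -0.96 and -0.95, against -0.95 with TMM. Without a filter the median of all genes moved by -0.37 and the WNT median relative to it was -0.79, and with the length trend removed it was -0.87. Genes called higher numbered 1 with length and GC trends removed, 1 with glmTreat, 6 with no minimum fold and 1 to 3 as each library was left out. Over all genes glmTreat called 2350 lower and 2455 higher, and with no minimum fold 5767 were called lower. Of the further pathway genes 64 were then called lower and 24 higher.

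Signs turned for 7 genes near 0. WNT3 was -0.02, PORCN -0.15, TCF7L2 -0.18 and TLE1 -0.10 with library totals only. Without a filter PORCN was -0.11, TCF7L2 -0.15 and TLE1 -0.06. PORCN was -0.07 with the replicate block, and -0.16 with length and GC trends removed (-0.26 with the block too), where LGR4 was 0.11 in both. With the length trend removed CSNK1D was 0.17 and AXIN2 0.04. As each library was left out, WNT3 lay between -0.14 and 0.34, PORCN between -0.78 and 0.44, TCF7L2 between -0.11 and 0.08 and AXIN2 between -0.56 and 0.10. The cause was not tested.

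Labels give both groups replicates 1 and 2. Across genes the replicate differences of the 2 groups had a correlation of 0.04. This cannot show whether same-numbered libraries shared a culture or batch. With the replicate block 26 WNT pathway genes were called lower and 2 higher. In fits without 1 library the lone sample is assumed to vary like the other group. The shallower CPI-455 libraries limit RNF43, WNT4 and DKK1 most, and intervals of WNT7B and WNT10B were wide.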
